A study of Mus musculus with 10 samples.

Results

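*Tmem120a*, *Sorcs2* and *Dusp10* are genes seldom discussed in brown fat whose reads were lower in the libraries labelled *Mgp*-KO than in wild type (WT). They are described here together with *Tmem120b*, the paralogue of *Tmem120a*, which was added for contrast. The 4 genes were selected by name on the pooled difference between the genotype labels, out of 27267 genes listed. That difference is therefore given for them as a description without a test. All 4 passed the filter on low values (at least 10 normalized counts on average), as did 13714 genes in all.

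The libraries came from interscapular brown adipose tissue (iBAT) of chow-fed C57BL/6 mice labelled as males of 4 weeks, 5 of them WT and 5 global *Mgp*-KO. The knockout allele is a targeted deletion carried in all cells (B6.129S7-Mgptm1Kry/KbosJ), so it is not restricted to a cell type. MGP (matrix Gla protein) is a secreted inhibitor of bone morphogenetic proteins, and the study asked what its loss does to brown fat. Values are normalized counts, that is, reads counted on a gene divided by the size factor of the library.

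Several libraries stood apart. Replicates 1 to 3 of each group held 19616366 to 22252260 reads on genes and 0.771 to 1.72% of them on mitochondrial rRNA, whereas replicates 4 and 5 held 9253793 to 13281873 reads and 6.50 to 16.7%. The labels name no batch, and these 2 sets of replicates are used below as sets. *Mgp* had 634 to 805 reads in WT 1 to 3, and 0, 1 and 1 reads in the libraries labelled *Mgp*-KO 1, 2 and 3, where 0 reads allow up to 3. It had 309 and 282 reads in the libraries labelled *Mgp*-KO 4 and 5, which goes against their label, so the members are also described within each set. WT 2 had 6803 *Xist* reads and a summed normalized count of Y chromosome genes of 3.74 against at least 1457 in every other library, which goes against its male label. *Ucp1*, *Cidea* and *Fabp4*, which define brown and other adipocytes, were abundant in every library, with at least 2201, 19856 and 87326 normalized counts.

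TMEM120A is a multi-pass membrane protein of the nuclear envelope and endoplasmic reticulum that binds coenzyme A, and its loss from fat affects adipocyte differentiation and gene positioning at the nuclear periphery. TMEM120B is its close relative. SORCS2 belongs to the VPS10-domain receptors, which sort proteins between compartments and bind proneurotrophins, and is best known from neurons. DUSP10 (MKP-5) is a dual-specificity phosphatase that removes phosphate from the stress kinases p38 and JNK, and p38 is known to act upstream of *Ucp1* in brown adipocytes.

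On GRCm38 (mm10), *Tmem120a* (ENSMUSG00000039886.8) lies on the minus strand of chromosome 5 from 135735485 to 135744448 and *Tmem120b* (ENSMUSG00000054434.14) on the plus strand from 123068415 to 123117749. *Sorcs2* (ENSMUSG00000029093.14) is on the minus strand of chromosome 5 from 36017180 to 36398139, and *Dusp10* (ENSMUSG00000039384.8) on the plus strand of chromosome 1 from 184013302 to 184075636. Of the 2852 exon bases of *Tmem120b*, 523 are shared with *Rhof* on the other strand. *Rhof* averaged 13.7 normalized counts in WT and 8.88 in the libraries labelled *Mgp*-KO. The strand setting of the counting is not known, so whether reads over these bases were counted for *Tmem120b* was not tested. If they were not, its level per kilobase would be understated. No exon bases of the other members are shared with another gene.

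The longest open reading frames of *Tmem120a* and *Tmem120b* were 71.3% identical over 1003 aligned bases, but the longest stretch common to any of their transcripts was 16 bases. No stretch of 50 bases, the read length, was shared, so exact reads of the paralogues could be told apart. The same held for *Sorcs2* against the other VPS10 receptors and for *Dusp10* against 4 related phosphatases, whose longest common stretches were at most 17 bases.

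The promoters of the paralogues and of *Dusp10* are shown because these genes shared a lower level in the libraries labelled *Mgp*-KO. *Sorcs2* was lower too, but its promoter was not in the set used. Each window runs from 250 bases before to 50 bases after the RefSeq start on GRCm38.p6, 5′ to 3′ on the strand of the gene, at chr5:135744123-135744422 (minus strand), chr5:123076025-123076324 (plus strand) and chr1:184034131-184034430 (plus strand). Capitals mark matches, on either strand, to the CCAAT box (CCAAT), the GC box (GGGCGG) and the cAMP response element (CRE, TGACGTCA).
Tmem120a: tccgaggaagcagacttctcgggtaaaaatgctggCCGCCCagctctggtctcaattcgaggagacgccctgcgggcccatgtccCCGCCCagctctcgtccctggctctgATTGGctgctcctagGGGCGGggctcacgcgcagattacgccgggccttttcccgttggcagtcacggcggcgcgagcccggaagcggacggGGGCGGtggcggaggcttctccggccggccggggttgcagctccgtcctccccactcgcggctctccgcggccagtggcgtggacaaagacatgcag
Tmem120b: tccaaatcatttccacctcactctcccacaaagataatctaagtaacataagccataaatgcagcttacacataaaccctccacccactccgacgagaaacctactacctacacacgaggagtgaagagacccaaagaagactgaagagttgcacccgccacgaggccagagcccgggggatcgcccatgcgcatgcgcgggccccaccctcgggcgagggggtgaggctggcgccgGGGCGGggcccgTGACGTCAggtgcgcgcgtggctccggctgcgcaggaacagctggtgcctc
Dusp10: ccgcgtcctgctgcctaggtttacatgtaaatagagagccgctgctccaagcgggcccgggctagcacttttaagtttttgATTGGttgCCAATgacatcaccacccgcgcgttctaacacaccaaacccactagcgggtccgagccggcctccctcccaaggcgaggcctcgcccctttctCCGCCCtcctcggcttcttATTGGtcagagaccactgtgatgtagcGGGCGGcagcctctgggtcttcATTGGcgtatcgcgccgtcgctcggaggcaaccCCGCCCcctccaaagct

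*Dusp10* held 4 CCAAT boxes, of which the first 2 begin 169 and 161 bases before the start, and 1.06% of 32851 RefSeq promoters held at least as many. *Tmem120a* held 4 GC boxes, where 5.49% of promoters held at least as many, and 1 CCAAT box, which 37.4% of promoters held. *Tmem120b* differed from its paralogue in lacking a CCAAT box and in holding a CRE that begins 1 base before its start, a motif found in 1.79% of promoters, beside 1 GC box, found in 35.7%. None of the 3 windows matched the E-box CACGTG (7.15% of promoters), the sterol response element TCACNCCAC (1.24%), the AP-1 site TGANTCA (7.81%) or the nuclear receptor repeat DR1, which is AGGTCA, any 1 base and AGGTCA again (0.0396%). A missing match says only that these letters are not in this window.

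*Tmem120a* was lower in every library labelled *Mgp*-KO. Its normalized counts in WT 1 to 5 were 1116, 1041, 1367, 1198 and 1514, and those in the libraries labelled *Mgp*-KO 1 to 5 were 338, 219, 400, 484 and 481. The groups did not overlap, with a gap from 484 to 1041, and *Mgp*-KO 2 was the lowest library. The means were 1247 ± 192 in WT and 384 ± 111 (SD, n = 5 each), so that the libraries labelled *Mgp*-KO held 30.8% of the WT mean. The log2 fold change was -1.74 ± 0.23 (SE), as were all fold changes below on the log2(normalized count + 1) scale.

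*Tmem120b* was lower by less and less evenly. Its normalized counts were 923, 967, 1386, 576 and 1147 in WT 1 to 5 and 650, 441, 701, 295 and 414 in *Mgp*-KO 1 to 5. WT 4 fell below *Mgp*-KO 1 and 3, so the pooled groups overlapped. The means were 999.8 ± 299 and 500.3 ± 170 (SD, n = 5 each), or 50.0% of WT, with a log2 fold change of -1.01 ± 0.29 (SE).

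*Sorcs2* had the largest pooled difference of the 4 and the widest spread. Its normalized counts were 1129, 1396, 1907, 117 and 339 in WT 1 to 5 and 194, 146, 231, 68.0 and 59.8 in *Mgp*-KO 1 to 5. WT 4 and 5 lay far below WT 1 to 3, and WT 4 lay below *Mgp*-KO 1 to 3. The means were 978 ± 743 and 140 ± 75.5 (SD, n = 5 each), or 14.3% of WT, with a log2 fold change of -2.42 ± 0.71 (SE). Its reads ranged from 42 in *Mgp*-KO 4 to 2594 in WT 3, the fewest and the most of any member in a library.

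*Dusp10* was lower in every library labelled *Mgp*-KO. Its normalized counts were 1458, 1199, 995, 916 and 883 in WT 1 to 5 and 418, 393, 473, 155 and 257 in *Mgp*-KO 1 to 5. The groups did not overlap, and the lowest values in each group were those of replicates 4 and 5. The means were 1090 ± 240 and 339 ± 130 (SD, n = 5 each), or 31.1% of WT, with a log2 fold change of -1.76 ± 0.30 (SE).

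**Figure D1:**
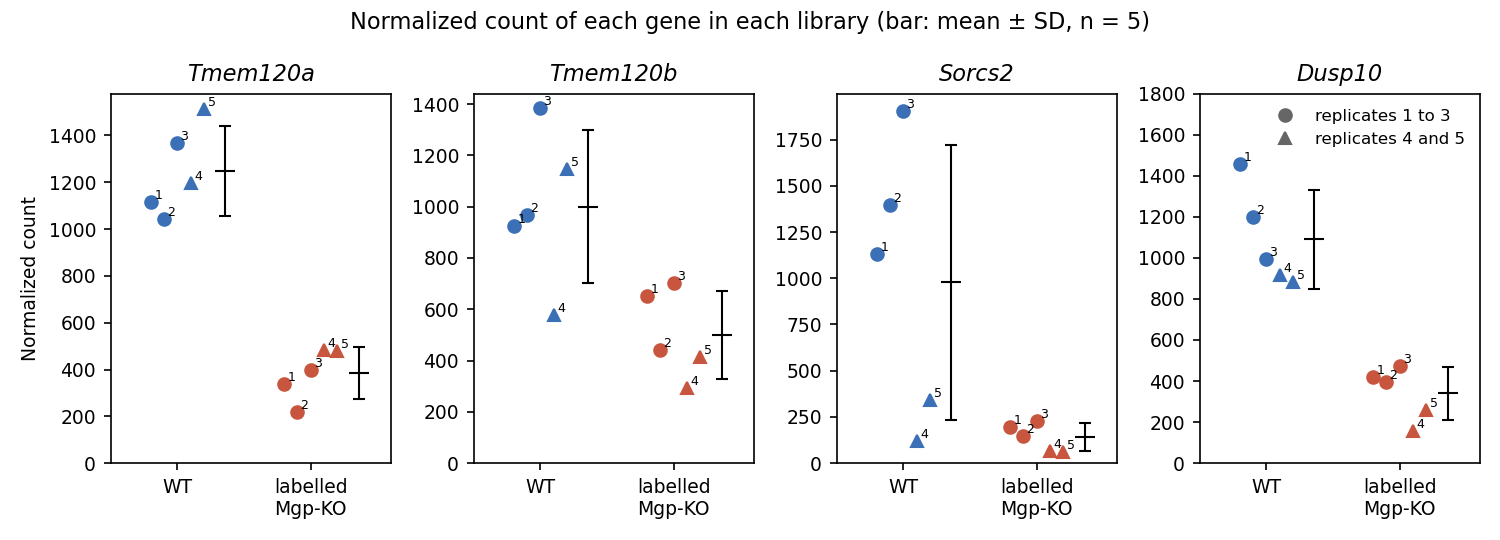
Normalized count (vertical axis, linear from 0) of the 4 genes in each library, by genotype label, with circles for replicates 1 to 3, triangles for replicates 4 and 5, the replicate number beside each point, and a bar for the mean ± SD (n = 5). *Tmem120a* and *Dusp10* do not overlap between the labels, whereas WT 4 lies among the libraries labelled *Mgp*-KO for *Tmem120b* and *Sorcs2*.

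In limma over all 13714 genes, 1 of the 4 members (*Tmem120a*) was among the 8 genes lower at an adjusted p under 0.05, which are 0.0583% of those tested, and with a term for the set all 4 were among 211 lower genes (1.54%). The pooled groups were apart for 2 members, beside 290 genes in all (2.11%). These counts rest on the contrast that chose the members, so nothing is read from them. In bulk tissue, fewer cells of a type and less RNA per cell cannot be told apart, and p-values here measure the spread between these samples.

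Per kilobase of merged exons, *Tmem120a* was the most abundant of the 4 in WT, with 721 ± 111 normalized counts per kb (SD, n = 5), and 4.99% of the 13379 genes with a length had a higher level. *Dusp10* and *Tmem120b* followed at 358 ± 78.8 and 351 ± 105 and did not differ beyond their spread. *Sorcs2* was lowest at 111 ± 84.4, at the 68.5th percentile. In the libraries labelled *Mgp*-KO the levels were 222 ± 64.0 for *Tmem120a*, 175 ± 59.8 for *Tmem120b*, 112 ± 42.8 for *Dusp10* and 15.9 ± 8.57 for *Sorcs2*. In *Mgp*-KO 1 to 3 alone (SD, n = 3) they were 184 ± 53.2, 210 ± 48.3, 141 ± 13.4 and 21.6 ± 4.82 in the same order, with *Tmem120a* and *Tmem120b* within their spread of each other.

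The ratio of *Tmem120a* to *Tmem120b* per kilobase put the paralogues side by side within each library. It was 1.99, 1.77, 1.62, 3.43 and 2.18 in WT 1 to 5, and 0.858, 0.817, 0.940, 2.71 and 1.91 in *Mgp*-KO 1 to 5. *Tmem120b* was thus the more abundant paralogue in *Mgp*-KO 1 to 3 alone. In each genotype the ratio was higher in replicates 4 and 5 than in any of replicates 1 to 3, and replicates 4 and 5 of the label *Mgp*-KO fell among the WT libraries.

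**Figure D2:**
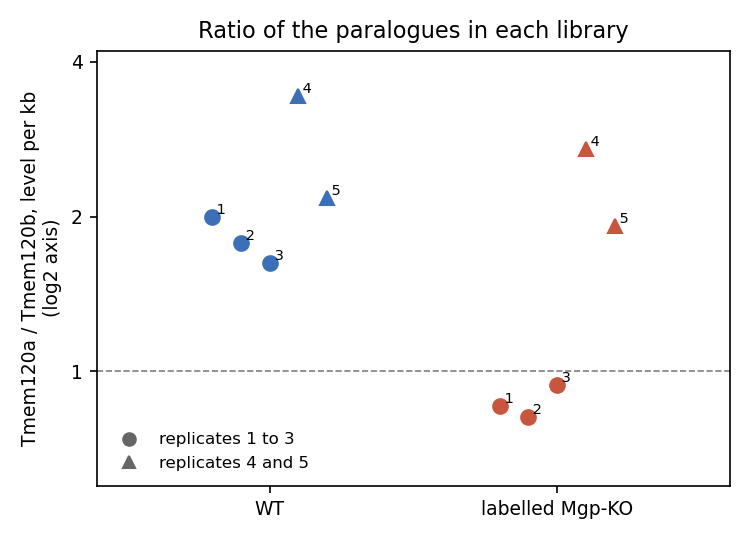
Ratio of the per-kilobase levels of *Tmem120a* and *Tmem120b* in each library (vertical log2 axis), by genotype label, with circles for replicates 1 to 3, triangles for replicates 4 and 5 and a dashed line at equal levels. The 3 libraries under the line are *Mgp*-KO 1 to 3, at 0.817 to 0.940.

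The next question was whether the difference was alike in both sets of replicates. Within replicates 1 to 3 the groups were apart for all 4 genes, beside 15.1% of tested genes with every library labelled *Mgp*-KO under every WT library. This was likewise so within replicates 4 and 5, beside 21.3%, and 6.31% of genes were apart in this direction in both sets. As the pooled contrast chose the members, nothing is read from these counts. In replicates 1 to 3, where *Mgp* reads were absent or single in the libraries labelled *Mgp*-KO, the log2 fold changes were -1.91 ± 0.23 (SE) for *Tmem120a*, -0.87 ± 0.22 for *Tmem120b*, -2.94 ± 0.24 for *Sorcs2* and -1.49 ± 0.16 for *Dusp10*. In replicates 4 and 5, where the libraries labelled *Mgp*-KO held *Mgp* reads, they were -1.48 ± 0.31, -1.22 ± 0.42, -1.63 ± 0.56 and -2.16 ± 0.36 in the same order. All 4 genes thus had lower counts under the label *Mgp*-KO in each set.

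The pooled difference that chose the members does not fix the difference between the sets, so the latter was tested as the genotype by set interaction (replicates 4 and 5 minus replicates 1 to 3). None of the 4 passed, beside 1 of 13714 genes in all (0.00729%), which was *Mgp* itself. For *Tmem120a* the interaction was 0.43 (95% interval -0.37 to 1.24, limma adjusted p = 0.636), and for *Tmem120b* -0.35 (-1.39 to 0.70, limma adjusted p = 0.776). For *Sorcs2* it was 1.31 (0.04 to 2.58, limma adjusted p = 0.477), and for *Dusp10* -0.67 (-1.43 to 0.09, limma adjusted p = 0.493). At an unadjusted p under 0.05 there was 1 of the 4, *Sorcs2*, beside 10.3% of all tested genes, and edgeR and DESeq2 called 0 of the 4, beside 1 and 61 genes in all. The intervals were wide, so likeness between the sets was not shown. Without WT 5 the estimate for *Tmem120b* turned to 0.15. Without *Mgp*-KO 5 the number of genes past the threshold rose to 1612, with 0 of the 4 members among them.

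**Figure D3:**
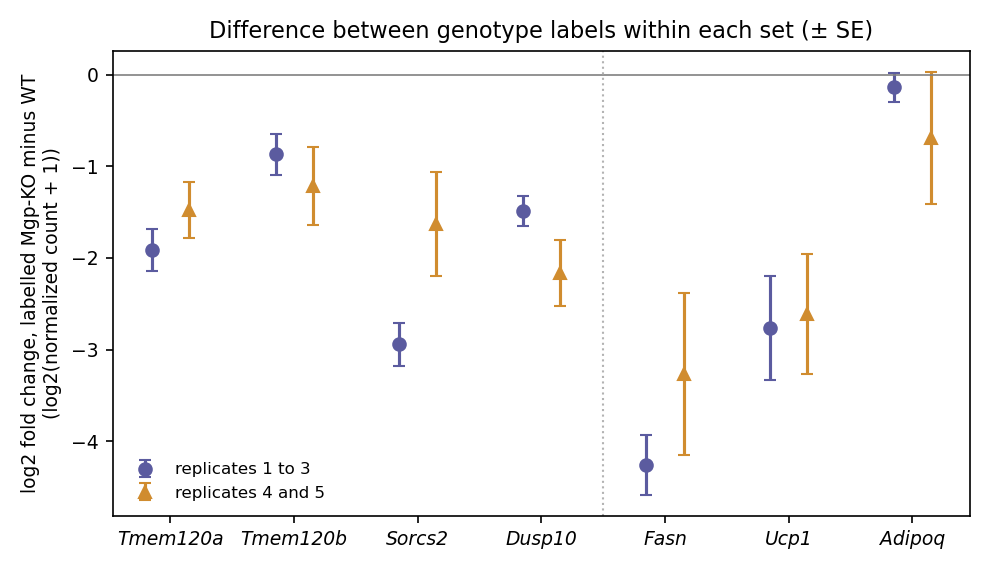
Log2 fold change (libraries labelled *Mgp*-KO minus WT, vertical axis, ± SE) within replicates 1 to 3 (circles) and within replicates 4 and 5 (triangles) for the 4 genes and, right of the dotted line, for *Fasn*, *Ucp1* and *Adipoq*. The 4 genes lie below 0 in both sets, and *Sorcs2* moves most between them, from -2.94 to -1.63.

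The sets themselves differed for many genes. The set difference (replicates 4 and 5 minus replicates 1 to 3, genotype in the model) passed for 5243 of 13714 genes (38.2%) and for 2 of the 4 members. *Sorcs2* fell by 2.19 on the log2 scale (95% interval -2.93 to -1.46, limma adjusted p = 6.6e-04), from a mean of 1477 ± 395 (SD, n = 3) to 228 ± 157 (SD, n = 2) in WT. *Dusp10* fell by 0.76 (-1.18 to -0.33, limma adjusted p = 0.0107), but by 0.42 without *Mgp*-KO 4 and 5, where it did not pass (limma adjusted p = 0.114). The values of *Tmem120b* and *Tmem120a* were -0.57 (-1.08 to -0.07, limma adjusted p = 0.0697) and 0.42 (0.01 to 0.83, limma adjusted p = 0.0946), and neither passed. Reads on genes were fewer and mitochondrial rRNA higher in replicates 4 and 5, and their part in these differences was not tested.

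The spread of *Sorcs2* lay mostly between the sets. Within genotype, the SD of *Sorcs2* on the log2 scale was 1.33, at the 94.9th percentile of tested genes, against a median of 0.48 over all of them. With set means also removed it was 0.53, at the 77.6th percentile. *Tmem120a*, *Tmem120b* and *Dusp10* had SDs of 0.37, 0.49 and 0.51 within genotype, at the 31.4th, 51.7th and 54.6th percentiles.

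To ask whether the members vary together with the fat genes *Fasn* (fatty acid synthase), *Ucp1* (uncoupling protein 1, the thermogenic protein of brown fat) and *Adipoq* (adiponectin, a hormone of mature adipocytes), genotype means were first removed, since the difference that chose the members sets any pooled correlation. *Fasn* had normalized counts of 74790 to 386840 in WT and 5989 to 23736 in the libraries labelled *Mgp*-KO. *Ucp1* had 38421 to 116019 and 2201 to 15641, and *Adipoq* 12547 to 16236 and 4675 to 20088. The groups were thus apart for *Fasn* and *Ucp1* and overlapped for *Adipoq*. The 12 relations with these genes and the 6 between members were tested over the 10 libraries by a two-sided exact permutation of libraries within genotype, with p-values adjusted over the 18. This takes the libraries of a genotype as exchangeable, although 38.2% of genes differed between the sets, so a set difference can move r and its p. Values with set means removed, permuted within genotype and set, are therefore also given below.

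*Tmem120a* followed *Ucp1*, and over the 10 libraries this was the only relation of the 18 with an adjusted p under 0.05. Pearson's r was 0.923 (exact permutation p = 0.00201, adjusted p = 0.0363) and Spearman's rho 0.867 (exact permutation p = 0.00208, adjusted p = 0.0375). *Mgp*-KO 2 was the lowest library of its group for both genes, with 219 normalized counts of *Tmem120a* and 2201 of *Ucp1*, and WT 5 the highest of its group, with 1514 and 116019. Without these 2 libraries, which lay farthest out on *Ucp1*, r was 0.681, and without *Mgp*-KO 2 alone it was 0.765 (exact permutation adjusted p = 0.231). With 1 library left out the relation passed in 2 of 10 cases, without WT 3 or WT 4. In the other 8 it did not, with r of 0.765 to 0.936 and exact permutation adjusted p of 0.05 (without *Mgp*-KO 4) to 0.231, nor did it with equal upper quartiles (r = 0.871, exact permutation adjusted p = 0.125). With set means also removed r was 0.932 (exact permutation p = 0.0278, adjusted p = 0.100), and within replicates 1 to 3 (n = 6) it was 0.933 (exact permutation p = 0.0556, adjusted p = 0.200). A relation alone could not pass in these last fits, since the smallest p the 144 and 36 orders of the libraries allow is 0.00694 and 0.0278, or 0.125 and 0.5 when 1 relation is adjusted over 18. The 4 libraries of replicates 4 and 5 were too few for a value.

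**Figure D4:**
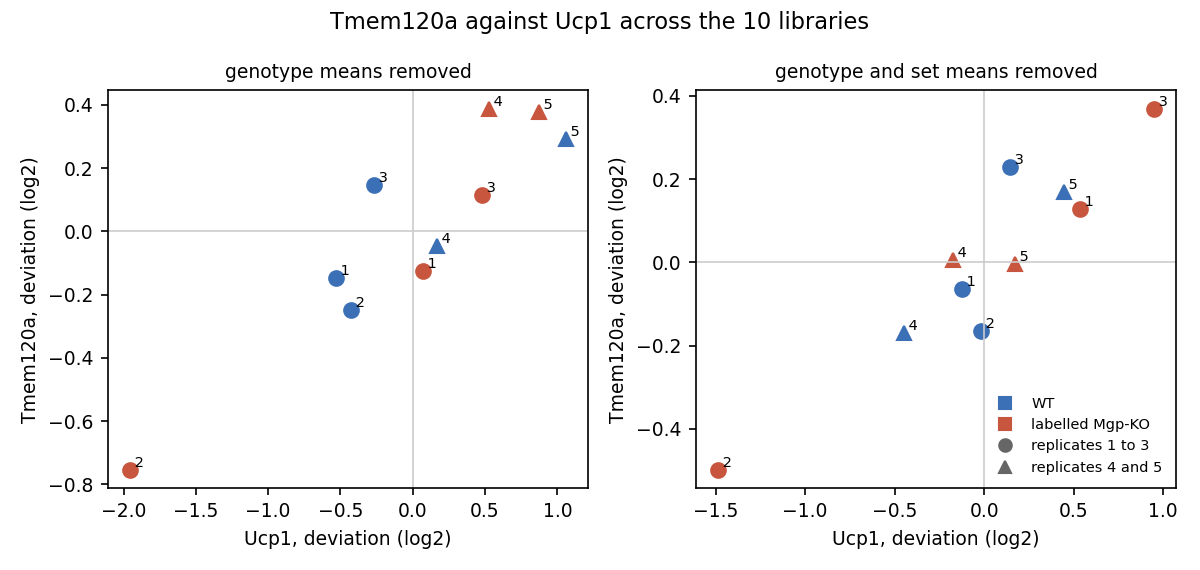
Deviation of *Tmem120a* (vertical) against that of *Ucp1* (horizontal), both in log2 units, in the 10 libraries after removal of genotype means (left) and of genotype and set means (right), with colours for the genotype label, circles for replicates 1 to 3 and triangles for replicates 4 and 5. *Mgp*-KO 2 lies at the lower left in both panels, and Pearson's r is 0.923 and 0.932.

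The r of *Tmem120b* with *Ucp1* was 0.00077 over all libraries (exact permutation adjusted p = 0.999). Within the sets it was nearer to that of *Tmem120a*, at 0.754 with set means removed (exact permutation p = 0.00694, adjusted p = 0.100) and 0.805 within replicates 1 to 3 (n = 6, exact permutation p = 0.0278, adjusted p = 0.167). The difference between the paralogues in r was not tested. *Sorcs2* and *Ucp1* had r of -0.41 (exact permutation adjusted p = 0.54), but 0.621 with set means removed (exact permutation p = 0.0208, adjusted p = 0.100). *Dusp10* and *Ucp1* had -0.46 and 0.247 in the same step (exact permutation adjusted p = 0.54 and 0.433). *Tmem120a* and *Sorcs2* had -0.31 and 0.707 (exact permutation adjusted p = 0.54 and 0.100). A high r with *Ucp1* within the sets was thus not particular to *Tmem120a*, although none passed there. Between the paralogues r was -0.04 (exact permutation adjusted p = 0.999), and 0.795 with set means removed (exact permutation p = 0.0278, adjusted p = 0.100). *Tmem120b* was nearer to *Sorcs2*, with r of 0.746 (exact permutation p = 0.0171, adjusted p = 0.154), rho of 0.733 and r of 0.873 with set means removed. This relation passed with equal upper quartiles (r = 0.829, exact permutation adjusted p = 0.015) and without WT 5 (r = 0.856, exact permutation adjusted p = 0.0312). Without WT 4 and *Mgp*-KO 4, r was 0.475.

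*Sorcs2* and *Fasn* had r of 0.688 (exact permutation p = 0.0528, adjusted p = 0.237), 0.657 with set means removed (exact permutation p = 0.0347, adjusted p = 0.104) and 0.178 without WT 4 and *Mgp*-KO 5. With 1 library left out r ran from 0.421 (without WT 4) to 0.902 (without *Mgp*-KO 4, exact permutation p = 0.0059, adjusted p = 0.0531). *Sorcs2* and *Dusp10* had r of 0.589 (exact permutation p = 0.0274, adjusted p = 0.165), but -0.26 with set means removed. *Dusp10* and *Fasn* went from -0.08 to -0.86 in the same step (exact permutation p = 0.0417, adjusted p = 0.107). For *Adipoq*, whose groups overlapped, r with the members lay between -0.04 and 0.468, and the lowest adjusted p was 0.546. These values rested on the libraries labelled *Mgp*-KO 4 and 5: without *Mgp*-KO 4, r was 0.787 with *Tmem120a* and -0.79 with *Dusp10* (exact permutation adjusted p = 0.161 and 0.111), and without *Mgp*-KO 5 it was -0.37 and 0.764 (exact permutation adjusted p = 0.606 and 0.552).

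As a description, the 5 tested genes with the highest Pearson r over the 10 libraries, genotype difference included, were listed for each member. For *Tmem120a* they were *Gpd2* (0.989), *Atg9b* (0.982), *Uros* (0.975), *Ipo8* (0.973) and *Carhsp1* (0.971), and *Ucp1* came sixth at 0.969. *Gpd2* encodes the mitochondrial glycerol-3-phosphate dehydrogenase, which is abundant in brown fat, and its normalized count was 15513 in WT and 8035 in the libraries labelled *Mgp*-KO. For *Tmem120b* they were *Pfkl* (0.985), *Slc38a10* (0.983), *Trp53inp2* (0.981), *1700037H04Rik* (0.977) and *Cpt2* (0.972), where *Pfkl* encodes a phosphofructokinase of glycolysis and *Cpt2* a carnitine palmitoyltransferase of fatty acid oxidation. For *Sorcs2* they were *Jazf1* (0.969), *Enc1* (0.962), *Rab6b* (0.960), *Reep6* (0.960) and *Tars2* (0.959). *Dusp10* had the fewest near genes, *Dalrd3* (0.958), *Borcs8* (0.938), *Zdhhc6* (0.936), *Iba57* (0.935) and *Ppp1r26* (0.935), with 26 genes at r of at least 0.9 against 110 for *Tmem120b*, 73 for *Tmem120a* and 67 for *Sorcs2*. No gene was among the first 5 of more than 1 member. All of these share the same libraries and genotype difference, so r reflects that difference as well.

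The families of the members were described next, by how many genes passed in limma with the set term. Over all 13714 tested genes 1.54% were lower and 0.824% higher in this fit, 19.3% had an unadjusted p under 0.05 in it, and DESeq2 without the term called 2.58%. The pooled values below include *Mgp*-KO 4 and 5. Of the 10 MAP kinase phosphatases listed, 8 were tested, and 2 were lower, *Dusp10* and *Dusp6*, a phosphatase of ERK, with means of 1001 ± 423 and 412 ± 130 (SD, n = 5 each) and a log2 fold change of -1.25 ± 0.28 (SE). Without *Dusp10*, which was chosen for being lower, 1 of 7 was lower and apart between the groups, and the median log2 fold change of the 7 was -0.15, against 0.03 over all tested genes. The call of *Dusp6* was weak, with an adjusted p of 0.0321 in limma with the set term and 0.110 without it, and with the term it was lost in 7 of 10 fits with 1 library left out (limma adjusted p up to 0.101). WT 5 had the most *Dusp6*, 1734 normalized counts against 986 in the next library, and without it the WT mean was 818 ± 121 (SD, n = 4; limma with set term, adjusted p = 0.0669). *Dusp6* was at -1.05 for replicates 1 to 3 alone and -1.54 for replicates 4 and 5. *Dusp1*, *Dusp4*, *Dusp5*, *Dusp7*, *Dusp8* and *Dusp16* did not pass and overlapped. For *Dusp8* the overlap rested on *Mgp*-KO 4, at 576 normalized counts, since the other 4 libraries of that label were at 39.0 to 59.9 and the lowest WT library at 83.1. Without *Mgp*-KO 4 its log2 fold change was -1.84 ± 0.44 (SE, limma with set term, adjusted p = 0.0413). *Dusp16*, which like *Dusp10* encodes a phosphatase of the stress kinases, had 486 ± 297 and 419 ± 179, with a log2 fold change of -0.15 ± 0.36. WT 4 alone was at 1011, and without it the WT mean was 355 ± 49.9 (SD, n = 4) and the log2 fold change 0.068, so the direction turned.

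The stress kinases that DUSP10 acts on were listed together with the kinases that activate them. Of these genes 7 had a positive and 3 a negative log2 fold change, beside 7228 and 6486 of all tested genes. Of the 10 genes tested among p38 and JNK kinases and the kinases that activate them, 0 passed in limma with or without the set term. At an unadjusted p under 0.05 there were 2 and 1, near the 19.3% and 10.4% over all tested genes, and their median log2 fold change was 0.09. *Mapk14*, which encodes p38 alpha, had means of 1307 ± 158 and 1372 ± 445 and a log2 fold change of 0.01 ± 0.23. *Mapk8*, which encodes JNK1, had 312 ± 95.3 and 352 ± 126, with 0.16 ± 0.28. The largest value was that of *Mapk13*, another p38 kinase, at 1.76 ± 0.54 with only 9.85 and 44.9 normalized counts, and it was the 1 gene of the 10 that DESeq2 called. It was at 2.60 for replicates 1 to 3 alone and 0.51 for replicates 4 and 5.

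**Figure D5:**
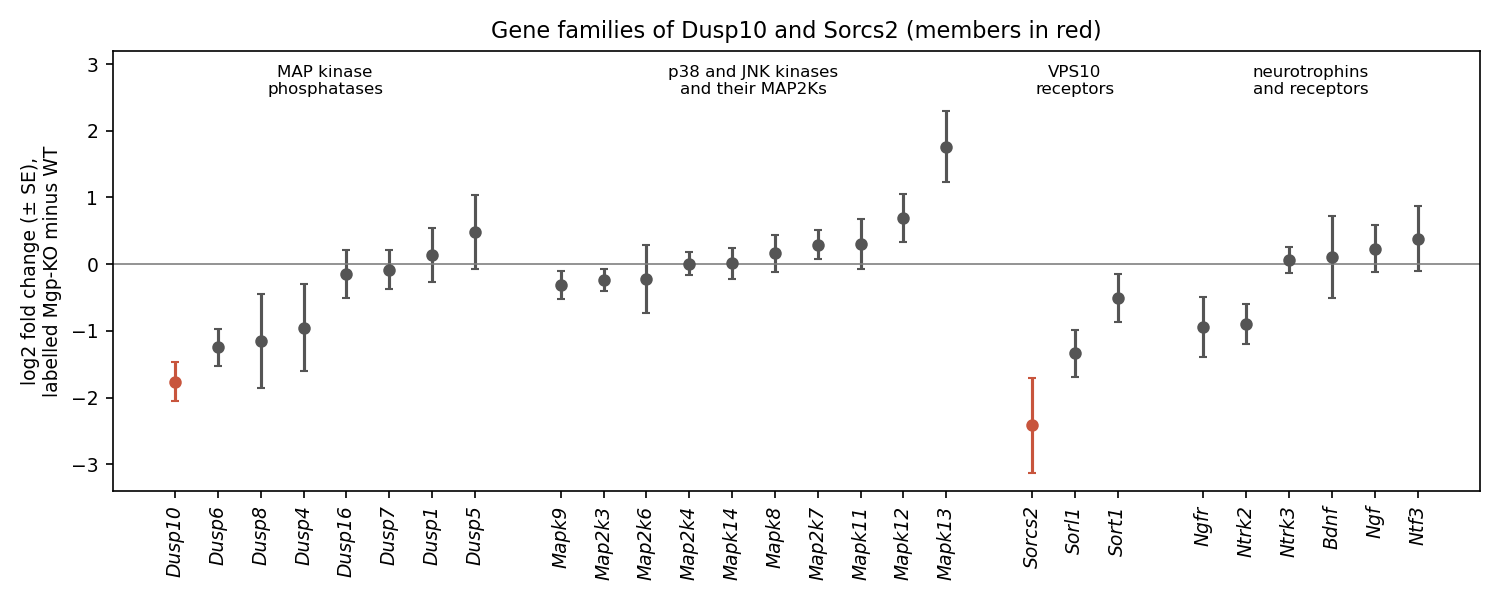
Log2 fold change (libraries labelled *Mgp*-KO minus WT, vertical axis, ± SE, n = 5 each) of the tested genes in the families of *Dusp10* and *Sorcs2*, with these 2 genes in red. *Dusp10* and *Sorcs2*, which were chosen for being lower, are at -1.76 and -2.42, and the p38 and JNK kinases have a median of 0.09.

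Of the 5 VPS10 receptors, 3 were tested. *Sort1*, which encodes sortilin, was the most abundant, with 4451 ± 1220 and 3367 ± 1532 and a log2 fold change of -0.50 ± 0.36 (SE). *Sorl1* had 425 ± 280 and 152 ± 41.5, with -1.34 ± 0.36, and its groups were apart. *Sorcs2*, which was chosen for being lower, passed in limma with the set term, and without it 0 of 2 did (*Sorl1* limma adjusted p = 0.0656). With 1 library left out *Sorl1* did not pass in 9 of 10 fits (limma adjusted p up to 0.158), and passed without WT 4 (0.0271). WT 5 had 914 of *Sorl1*, and without it the WT mean was 303 ± 69.1 (SD, n = 4) and the log2 fold change -1.01 (limma with set term, adjusted p = 0.108). DESeq2 without the term called *Sorcs2* and *Sorl1*, and *Sorl1* was at -1.22 for replicates 1 to 3 alone and -1.52 for replicates 4 and 5. *Sorcs1* and *Sorcs3*, the nearest relatives of *Sorcs2*, were near the floor of 2.15 to 5.19 normalized counts that 3 reads allow and were not tested.

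Of 8 neurotrophins and receptors, 6 were tested and 1 passed, beside 2.36% of all tested genes in either direction. DESeq2 called 0 of the 6. The gene that passed was *Ntrk2*, the receptor of brain-derived neurotrophic factor, which was lower at 1990 ± 852 against 3468 ± 700 in WT (log2 fold change -0.89 ± 0.30, limma with set term, adjusted p = 0.033, but 0.301 in limma without the term), with overlapping groups and values of -0.60 for replicates 1 to 3 alone and -1.33 for replicates 4 and 5. *Ntrk2* passed in 2 of 10 fits with 1 library left out (limma adjusted p of 0.0319 to 0.0971). *Ngfr*, which encodes the p75 receptor that binds proneurotrophins together with VPS10 receptors, had 69.8 ± 34.3 and 35.5 ± 17.6 and did not pass.

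For *Tmem120a* and *Tmem120b*, 25 genes of nuclear envelope membrane proteins and the lamina served as neighbours by location. In limma with the set term 0 of these were lower and 1 was higher, beside 0.824% of all tested genes, and DESeq2 without the term called 0. At an unadjusted p under 0.05 there were 3 of 25 (*Wfs1*, *Lbr* and *Tmpo*), under the 19.3% over all tested genes. The higher gene was *Tmpo*, which encodes the lamina-associated polypeptide 2, at 0.58 ± 0.22 (SE) on the log2 scale, and it passed in 1 of 10 fits with 1 library left out (without *Mgp*-KO 4). The median of the 25 was 0.08 (0.09 for replicates 1 to 3 alone and -0.02 for replicates 4 and 5), against 0.03 over all tested genes.

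Markers of the cell types in the tissue were summed beside these values. The 10 brown adipocyte markers summed to 238512 to 419799 normalized counts in WT and 173960 to 300544 in the libraries labelled *Mgp*-KO, which overlap. Of these markers 9 of 10 had a negative log2 fold change, with a median of -0.39 (-0.23 for replicates 1 to 3 alone and -0.62 for replicates 4 and 5), and 2 (*Ucp1* and *Dio2*) were lower with the set term, beside 1.54% of all tested genes. *Ucp1* passed in 10 of 10 such fits with 1 library left out and *Dio2* in 6. Without the set term 0 of the 10 markers passed (limma adjusted p = 0.0601 for *Ucp1* and 0.363 for *Dio2*). With the term, an unadjusted p under 0.05 was found for 4, beside 19.3%, and DESeq2 without it called 1, beside 2.58%. The 8 endothelial markers all had a positive value, with a median of 0.42 (0.22 for replicates 1 to 3 alone and 0.88 for replicates 4 and 5) and sums of 18108 to 30344 and 20853 to 55080, and none passed. The 6 tested markers of Schwann cells and nerve, of which *Nefl* was too low to test, had a median of -0.44 and sums of 2091 to 3165 and 1252 to 3662, but the median was -0.79 for replicates 1 to 3 alone and 0.60 for replicates 4 and 5. The 8 progenitor and fibroblast markers had a median of -0.50, the 8 myeloid markers 0.10, the 6 markers of smooth muscle and pericytes 0.15 and the 4 tested T and B cell markers 0.39, and none of these passed. At an unadjusted p under 0.05 in limma with the set term there were 2 endothelial, 3 progenitor and 1 Schwann cell genes, beside 19.3% of all tested genes. There were 0 in the myeloid, smooth muscle, skeletal muscle and T and B cell lists, and DESeq2 without the set term called no gene of these 7 lists. The 6 skeletal muscle markers summed to 36.7 to 5276 in WT and 35.3 to 29312 under the label *Mgp*-KO (median 0.44), also with none past the threshold. The part of cell composition in the members' differences was not tested.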

How the data were processed

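Total RNA of iBAT from 10 mice was sequenced with single reads of 50 bases. As the methods state, the authors aligned reads to mm10 with STAR, took its gene counts, and scaled them by DESeq2 size factors. The deposited signal is thus in normalized counts and never below 0. The annotation release and strand setting are not given in the sources used here. Each value (100%) came out as a whole number of reads (tolerance 0.01 reads), so reads were recovered, and floors of 3 reads cover counting error only.

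Groups and replicate numbers come from the labels. Limma 3.58.1 (R 4.3.3, mean-variance trend) was fitted to log2(normalized count + 1) of genes with a mean of at least 10, with Benjamini-Hochberg adjustment over all tested genes and a threshold of 0.05. Recovered reads were used for edgeR 4.0.16 (TMM) and DESeq2 1.42.0. Correlations used every order of libraries within genotype (14400). Exon lengths and positions come from GENCODE vM21, in which 25666 symbols (94.1%) were found. Promoters come from a set of RefSeq promoters that held 3 of the 4 members. *Sorcs2* was not in this set, which does not show that RefSeq lacks it. The fits were tested on simulated data.

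The members, gene lists and tests were chosen with earlier results of these data known. Genes are named if they are members, *Mgp*, *Fasn*, *Ucp1* or *Adipoq*, among the 5 most alike to a member, or detected genes of the families listed. *Xist*, *Rhof* and the cell type markers are outside this rule. Alternatives were other pseudocounts, filters, scaling and tools, a set term, a replicate block, each set alone, and each library left out. DESeq2 with a set term was added after seeing the data.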

Additional observations from a re-analysis of the deposited data

Results flagged for a closer look

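None of the 4 members, *Fasn*, *Ucp1*, *Adipoq* or *Mgp* had a library standing apart from the others of its group by the gap to the nearest library divided by the range of the group, which was compared with 0.71 for 5 samples. Among all 23 genes and 46 groups checked, 5 groups of relatives of the members did, where chance gives about 1 in 20 for normally distributed values. A gap to 1 nearest library cannot flag 2 libraries that lie apart together. *Mgp* in *Mgp*-KO 4 and 5 (largest gap in its group 0.339) and *Sorcs2* in WT 4 and 5 (0.286) were therefore not flagged. *Dusp8* was highest in *Mgp*-KO 4 (576 normalized counts against 59.9 in the next, gap 0.961 of the range). *Dusp16* was highest in WT 4 (1011 against 407, 0.835), *Sorl1* in WT 5 (914 against 370, 0.799) and *Dusp6* in WT 5 (1734 against 986, 0.741). *Dusp1* was lowest in *Mgp*-KO 5 (414 against 1808, 0.790). All 5 lay in replicates 4 and 5.

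*Mgp* differed between the sets, with an interaction of 7.16 on the log2 scale (95% interval 6.15 to 8.17, limma adjusted p = 2.51e-04). Its normalized counts were 0, 0.765 and 0.821 in *Mgp*-KO 1 to 3 and 500.2 and 331 in *Mgp*-KO 4 and 5.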

How the results depend on the processing

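The log2 fold changes of the 4 members kept their sign in all 14 other settings and with each library left out. They also stayed within 1 SD of their main values, where the SD is that between libraries within genotype. For *Sorcs2* this SD was 1.33, so the bound was wide. As the pooled contrast chose the members, nothing is read from this. The fold changes ranged from -1.99 to -1.48 for *Tmem120a*, -1.22 to -0.71 for *Tmem120b*, -2.94 to -1.63 for *Sorcs2* and -2.16 to -1.32 for *Dusp10*, and with 1 library left out from -1.84 to -1.55, -1.19 to -0.84, -3.04 to -2.03 and -1.91 to -1.51.

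The number of genes that passed between genotype labels was 9 in limma (1421 at an unadjusted p under 0.05) and moved with nearly every choice. It was 29 with a pseudocount of 10, 1 with no filter on low values, 15 with a mean of at least 50, 25 with equal upper quartiles, 3 in edgeR, 374 in DESeq2, 324 with a set term, 1152 in DESeq2 with a set term, 486 in replicates 1 to 3 alone, 0 in replicates 4 and 5 alone (855 at an unadjusted p under 0.05) and 267 without the libraries labelled *Mgp*-KO 4 and 5. With 1 library left out it ran from 0 (without WT 2, 3 or 5 or *Mgp*-KO 1 or 3) to 93 (without *Mgp*-KO 4), and was 34 without WT 4 and 5 without *Mgp*-KO 5. The causes were not tested.

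With the replicate block the count was 270. Deviations of same-numbered libraries correlated by 0.056 to 0.527, and by 0.390 on average, against 0.416 for other numbers of the same set. Of 5 pairs, 2 matched best with their own number, so the numbers were not taken as pairs. The interaction count was 1 with the block.

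The interaction passed for 1 gene in limma and 61 in DESeq2. It ran from 1 to 1612 with 1 library left out, and was 2 without WT 3 and 3 without *Mgp*-KO 4. For the members no interaction passed in any setting. That of *Tmem120b* ran from -0.84 (without WT 4) to 0.15 (without WT 5), that of *Tmem120a* from 0.18 to 0.62, that of *Sorcs2* from 0.55 to 2.07 and that of *Dusp10* from -1.03 to -0.31. The set difference of *Sorcs2* kept its call throughout. That of *Tmem120b* was -0.76 with equal upper quartiles (limma adjusted p = 0.0221), a scaling that moved the median of all genes from -0.02 to -0.20, and ran from -0.80 (without WT 5, limma adjusted p = 0.0138) to -0.42 (without WT 4) with 1 library left out. That of *Dusp10* was -0.42 without *Mgp*-KO 4 and 5.

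The number of the 18 correlations that passed was 1. It was 0 with set means removed and 0 in replicates 1 to 3 alone, where a relation alone could not pass (smallest adjusted p of 0.125 and 0.5) and *Ucp1* and *Tmem120a* had r of 0.932 and 0.933. With 1 library left out it was between 0 and 1, and 0 in 7 of 10 cases. *Ucp1* and *Tmem120a* kept their call in 2 of these 10, without WT 3 or WT 4. The 1 was *Ucp1* and *Tmem120a*, except with equal upper quartiles and without WT 5, where it was *Tmem120b* and *Sorcs2* (r of 0.829 and 0.856). With 1 library left out *Ucp1* and *Tmem120a* had r of 0.765 to 0.959, and with equal upper quartiles 0.871 (exact permutation adjusted p = 0.125). Depth limits *Sorcs2* most, with 42 to 51 reads in *Mgp*-KO 4 and 5. Leaving out 1 library in the fit with the set term, a choice made after seeing the data, moved *Dusp16* between -0.34 (without WT 5) and 0.068 (without WT 4), so its sign turned.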
